A study of Aegilops tauschii x Triticum turgidum with 4 samples.

Results

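In crowns with severe growth abortion (SGA), 82 array probes read more than 32 times their wild-type level, among probes that were measurable in both groups. The set was chosen by signal on the same 4 arrays that are described here: a probe entered when it was well above background on every array and its SGA mean lay at least 5 log2 units over its wild-type mean, each array being taken relative to its own 75th percentile. Of 37826 plant probes, 1212 were left out by name, 9 by an outlier flag and 10529 because at least 1 array did not rise well above background. That left 26076 eligible probes, of which the 82 members make up 0.314%. This share is fixed by the threshold and carries no test, and no p-value for the difference between the groups is given below.

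The hybrids came from crosses between Triticum turgidum, a tetraploid wheat, and Aegilops tauschii, the wild goat grass that gave bread wheat its D genome. All plants were triploid hybrids grown at 23 °C and sampled at 3 weeks as crowns, where leaf bases meet the root and the shoot apical meristem sits. The wild-type group looked normal and the SGA group showed growth abortion. Each group has 2 arrays, numbered as independent experiments. No source used here says whether separate plants were used. Each SD or standard error below therefore rests on spread between arrays, which may be technical. The parental lines of the 2 groups are not named in the labels, so a difference of genotype and a difference of phenotype cannot be told apart. The labels call the material shoot meristem, crown and leaf in different places, and the files pair no probe name with a gene, so the tissue could not be checked by marker genes.

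A shoot apical meristem is a small dome of dividing cells that gives rise to leaves and stem. Growth of a grass seedling depends on division in that dome, and the title of the study places the failure of SGA hybrids in mitosis at the shoot apex. Incompatible hybrids between wheat species are known in several forms, with necrosis, chlorosis or arrested growth, in which parental genomes that are harmless apart act badly together. No role is given to single members here, because their names are those of contigs and clones, and whether several members read the same transcript was not tested.

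The arrays differed in overall brightness. The 75th percentile of plant signal was 1541 and 1395 intensity units in wild type and 2671 and 2813 in SGA, and between 27627 and 30258 probes were well above background. Scaling to that percentile therefore lowers SGA values against wild-type ones. Replicate 1 of both groups lay on slide 1 and replicate 2 of both groups on slide 2. Wild-type arrays always took position 3 of a slide and SGA arrays position 4, and so the effect of position cannot be told apart from that of phenotype. With 2 arrays against 2, the smallest two-sided p of an exact permutation test on a single value is 0.333.

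The members were faint in wild type and moderately bright in SGA. Their median signal before scaling was 53.2 and 52.0 on the wild-type arrays, at percentiles 33.4 and 32.8 of all plant probes. It was 7084 and 7496 on the SGA arrays, at percentiles 87.0 and 87.1. On both wild-type arrays 78 of the 82 lay under the median plant probe. On both SGA arrays 77 lay above the 75th percentile, 26 above the 90th, 11 above the 95th and 0 above the 99th. Fewer cells of a type and less RNA per cell cannot be told apart in such bulk tissue.

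**Figure D1:**
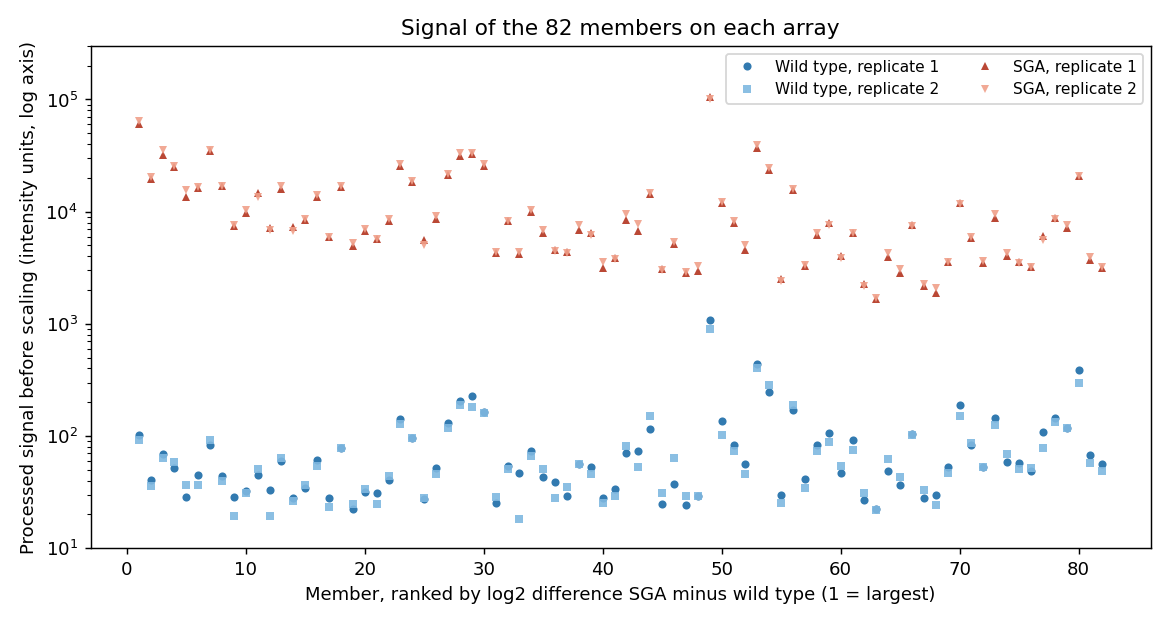
Processed signal before scaling (log axis, intensity units) of each of the 82 members, ranked by log2 difference, with 1 point for each of the 4 arrays. The wild-type points lie between 18.1 and 1085 and the SGA points between 1676 and 104210. A wide gap between the groups within each member follows from the rule that chose the members.

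Together the members held 0.00412% ± 0.00011 of the wild-type plant signal and 0.475% ± 0.0034 of the SGA plant signal (SD, n = 2 arrays each), a ratio of 116. That SGA share was spread over many probes. The brightest member gave 10.3% of the members' summed SGA signal and the 10 brightest gave 41.9%.

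Differences ran from 5.01 to 8.43 log2 units, or from 32.3-fold to 345-fold, with a median of 6.01 and quartiles of 5.37 and 6.76. The median eligible probe differed by 0.12. Of the members 41 lay between 5 and 6 log2 units, 26 between 6 and 7, 12 between 7 and 8, and 3 above 8. The standard error from limma, fitted over all tested probes, had a median of 0.082 among the members (0.047 to 0.45) and of 0.069 among all tested probes. Limma draws the spread of each probe toward a value shared by all tested probes. A member's standard error is thus not the spread of its own arrays alone.

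The highest difference belonged to wheat0130Contig5354, with signals of 102 and 91.3 on the wild-type arrays and 60443 and 64086 on the SGA arrays (log2 difference 8.43 ± 0.047 SE, n = 2 per group). It was also the second brightest member in SGA, at percentiles 98.1 and 98.2. Next came wheat0130Contig12132, with 41.0 and 35.6 on the wild-type arrays against 19470 and 20161 on the SGA arrays (8.12 ± 0.052 SE). Probe wheat0130Contig2499 went from 69.6 and 64.1 to 31934 and 35664 (8.08 ± 0.057 SE). These 3 were the members above 256-fold, and in each the arrays of a group lay close together.

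The arrays of wild type stood further apart for the following pair. Probe wheat0130Contig12030 had 52.1 and 59.1 on the wild-type arrays and 25171 and 25657 on the SGA arrays (7.94 ± 0.13 SE). Probe wheat0130Contig6656 had 28.5 and 36.3 against 13537 and 15446 (7.91 ± 0.19 SE). The contig with the next number, wheat0130Contig6657, was a member as well, with 32.9 and 19.4 on the wild-type arrays and 7082 and 6830 on the SGA arrays (7.20 ± 0.24 SE). Both probes of this numbered pair were faint in wild type, where the lowest signals counted as well above background were 21.4 and 15.0.

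At the other end of the set, MUGEST2003_23lib_Contig9904_172 was the last member at 32.3-fold, with 56.6 and 49.1 on the wild-type arrays and 3173 and 3193 on the SGA arrays. Just above it were MUGEST2003_23lib_Contig5356_332 at 32.6-fold and wheat0130Contig2399 at 32.9-fold. Just under the threshold were MUGEST2003_23lib_Contig4236_327 at 31.9-fold, wheat0130Contig258 at 31.3-fold and rwhr8f19 at 30.1-fold. The first of these outsiders was brighter than most members, with 278 and 253 on the wild-type arrays and 15131 and 16553 on the SGA arrays. The set has no natural edge here: 7 members lay within 0.1 log2 units above the threshold.

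**Figure D2:**
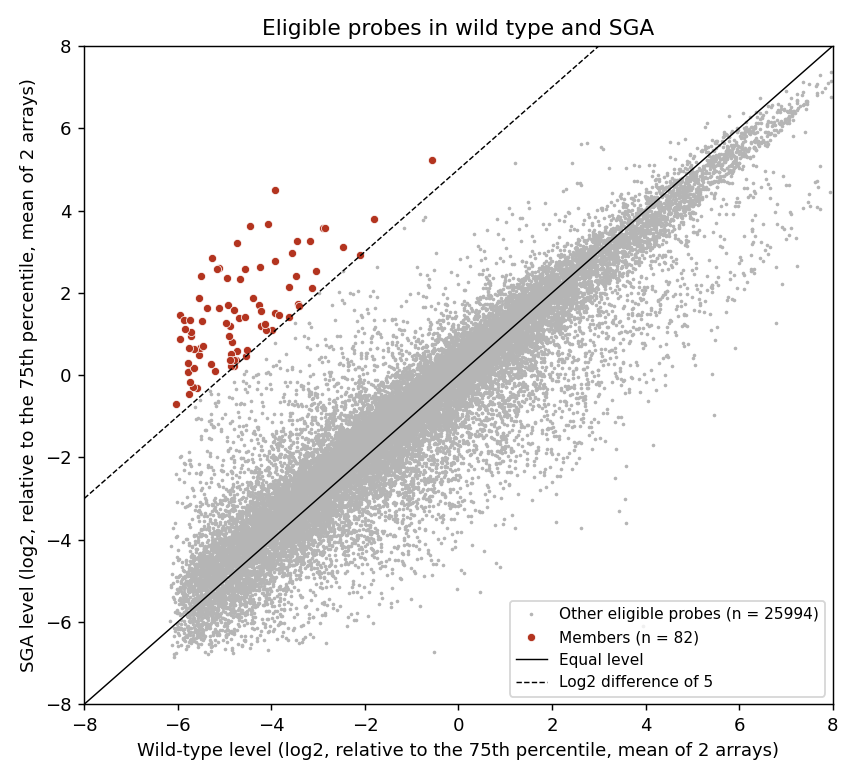
Mean level in wild type (x axis) and in SGA (y axis) of the 26076 eligible probes, in log2 units relative to each array's 75th percentile, with the 82 members in red, a solid line of equal level and a dashed line at a log2 difference of 5. The members spread along the dashed line from the faintest wild-type levels up to wheat0130Contig2573, which stands apart at the bright end.

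The brightest member in SGA, wheat0130Contig2573, had 104210 and 99955 there, at percentiles 99.07 and 98.96. In wild type it had 1085 and 907, by far the highest wild-type signals of the set, and a 55.0-fold difference (5.78 ± 0.080 SE). The third brightest in SGA was wheat0130Contig7898, with 435 and 404 on the wild-type arrays against 37020 and 39356 on the SGA arrays (5.61 ± 0.049 SE). These were also the members with the highest wild-type levels, and both were measurable in normal crowns.

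The faintest member in SGA was rwh9l19, with 22.5 and 22.1 on the wild-type arrays and 1676 and 1684 on the SGA arrays (5.33 ± 0.069 SE). It was the faintest in wild type too. The next faintest in SGA was rwhsl15p05, with 30.0 and 24.4 against 1895 and 2079 (5.29 ± 0.075 SE). Also among the faintest in wild type, wheat0130Contig2585 had 28.7 and 19.5 there and reached 7438 and 7668 in SGA (7.41 ± 0.16 SE).

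By wild-type signal, 35 members had a group mean under 50 units, 30 a mean from 50 to 100, and 17 a mean of 100 or more. They were 1.97% of the 1774 eligible probes under 50, 1.18% of the 2544 from 50 to 100, and 0.0781% of the 21758 at 100 or more. These shares follow from the rule and are given without a test. The median log2 difference was 6.41 for the faintest of these 3 groups, 5.71 for the middle and 5.61 for the brightest. That order turned with normexp background correction, which gave 4.95 for the faintest group and 5.31 for the brightest. On both wild-type arrays 16 members had less than 2 times the lowest signal that counted as well above background.

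That background limit also set which strongly raised transcripts belong to the set. Another 220 probes that passed the name and flag rules had a measured difference of at least 5 but were above background on neither wild-type array, and 14 were above it on 1 of them. Of 1617 probes detected on the pair of SGA arrays but on no wild-type array, 87 stayed at 32-fold or more under a floor. That floor raised fainter wild-type signals to the lowest signal of any probe on the array that counted as well above background. The detection limit of a single probe can be higher, so this is not a strict lower bound. In the other direction, 19 eligible probes were at least 32-fold lower in SGA, against the 82 that were higher. At 16-fold or more the counts were 115 lower and 149 higher, and the count of higher probes moved with the scaling. None of the 993 unflagged probes left out by name and measured on all 4 arrays was 32-fold higher.

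Wild-type replicates differed more than SGA replicates. The absolute log2 difference between the arrays of a group had a median of 0.16 in wild type and 0.055 in SGA over the members, and it was larger in wild type for 66 of 82. Over all eligible probes the medians were 0.091 and 0.061, and the wild-type difference was the larger for 64.0%. The spread in wild type went with faint signal. It was 0.24 for members under 50 units, where all eligible probes of that signal had 0.26, and 0.12 for members of 100 units or more.

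**Figure D3:**
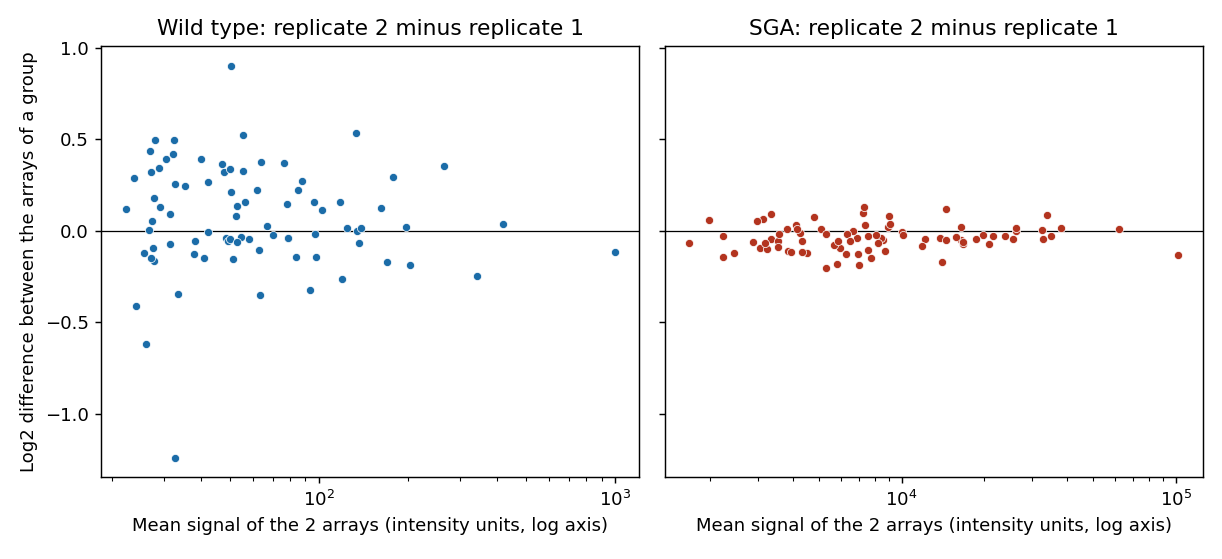
Log2 difference between the 2 arrays of a group (replicate 2 minus replicate 1, after scaling) for each member against its mean signal (log axis), for wild type on the left and SGA on the right. The wild-type differences run from -1.24 to 0.90 and the SGA differences from -0.21 to 0.13.

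The widest wild-type pair was that of wheat0130Contig14366, with 47.2 and 18.1 on the wild-type arrays and 4161 and 4347 on the SGA arrays (6.28 ± 0.45 SE). Its log2 difference was 5.67 on slide 1 and 6.90 on slide 2. The second widest was wheat0130Contig10049, with 37.5 and 63.4 on the wild-type arrays and 5169 and 5384 on the SGA arrays (5.85 ± 0.33 SE), which gave 6.31 and 5.40. In SGA the widest pairs were much tighter. They were those of MUGEST2003_23lib_Contig11139_242, with 5553 and 5074, and whr15p05, with 7263 and 6726, at scaled differences of -0.21 and -0.19.

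Each slide alone kept most members past the threshold. Within slide 1, 80 of the 82 members kept a difference of at least 5, within slide 2, 79 did, and 77 did on both. The slide differences average to the value that chose the members, so these counts largely follow from the rule. The median was 6.11 on slide 1 and 5.96 on slide 2. The 5 members under 5 on a slide were all near the threshold: wheat0130Contig2399 and MUGEST2003_23lib_Contig5356_332 fell just short on slide 1 (4.95 and 4.97), and whf12h24, whrd19h18_230 and wheat0130Contig2544 on slide 2 (4.95, 4.94 and 4.99).

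Whether any member differed between the slides could be tested, since that contrast played no part in the choice. Slide 2 minus slide 1, with group in the model, passed for 0 of 82 members and for 0% of 30005 tested probes (limma, two-sided, adjusted p under 0.05). The lowest adjusted p of a member was 0.478 (limma). At an unadjusted p under 0.05 there was 1 member, against 10.4% of all tested probes. The slide coefficients of the members had a median of 0.005 log2 units and ran from -0.63 to 0.44. A missed threshold does not show that the slides were equal.

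The names of the members are contig and clone labels, which do not say what the sequences encode. Of the 82, 49 were wheat0130Contig probes (59.8%, 95% Wilson interval 48.9 to 69.7, for counting error only), a class that makes up 43.2% of eligible probes. Another 20 were MUGEST contigs (24.4%, interval 16.4 to 34.7, against 18.9%). The other 13 bore clone names, 15.9% of the members against 29.0% of eligible probes. No member came from the 1035 eligible whfl_allContig probes (3.97% of eligible probes) or the 1192 named MUG (4.57%). The clone-named members were spread over 10 name classes, of which rwhr and whr together supplied 4, from 477 eligible probes (1.83%). Members were 0.314% of all eligible probes, so only a few would be looked for in classes of such size. These shares follow from a set chosen by the group difference and are descriptions without a test.

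Among the wheat0130Contig members the contig numbers were unevenly spread. Numbers above 2000 and up to 3000 held 14 of the 49 members, 2.11% of the 663 eligible probes of that band, while the other bands together held 35 of 10597 (0.33%). Counting these members, 84 probes of the band (12.7%) lay 2-fold or more above wild type and 87 (13.1%) lay 2-fold or more below it, against 8.97% and 10.2% of all eligible wheat0130Contig probes. At 16-fold or more, the band held 19 of the 81 rises and 7 of the 61 falls among these probes. Changes of that size in either direction made up 3.92% of the band and 1.26% of all eligible wheat0130Contig probes. The bands were drawn after the values were seen, and no source used here explains the numbering.

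**Figure D4:**
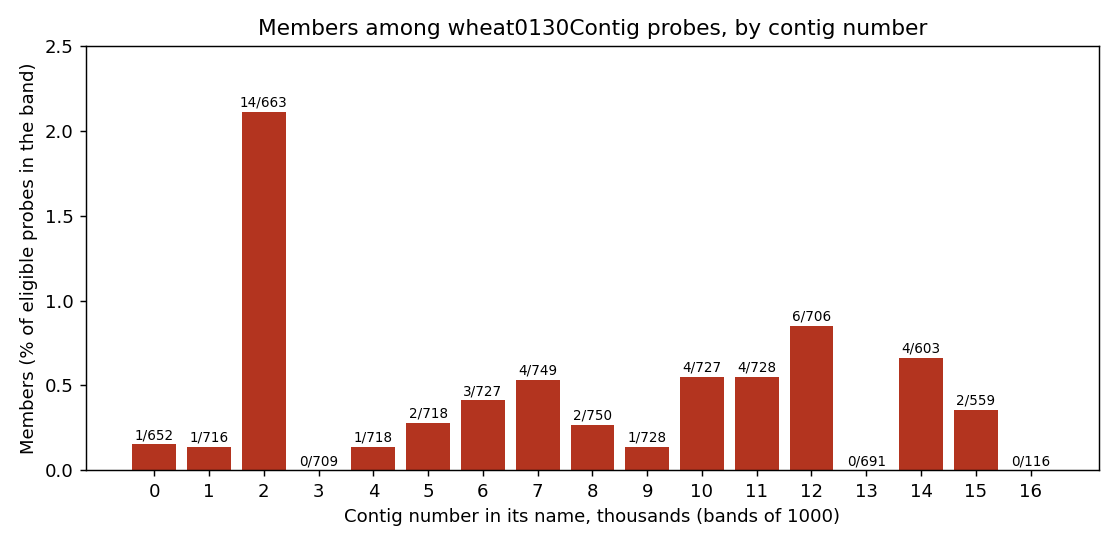
Members as a percentage of the eligible wheat0130Contig probes in each band of 1000 contig numbers (x axis, in units of 1000), with the members and the eligible probes of the band printed over each bar. The band above 2000 and up to 3000 reaches 2.11% and no other band exceeds 0.85%.

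The 14 members of that band differed widely in level. Their lowest and highest wild-type signals were 19.5 and 1085, and in SGA 2416 and 104210. Their log2 differences ran from 5.04 to 8.08, with a median of 6.21. They include wheat0130Contig2499, wheat0130Contig2573 and wheat0130Contig2585, described above. Another member, wheat0130Contig2237, had 205 and 188 on the wild-type arrays and 31571 and 33328 on the SGA arrays (6.46 ± 0.047 SE). Probe wheat0130Contig2251 lay far lower in both groups, with 28.1 and 23.4 against 5990 and 5913 (6.96 ± 0.073 SE).

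Neighbouring contig numbers did not in general share the rise. Of 71 eligible non-members with the number just before or after that of a member, 7 were at least 2-fold higher in SGA (9.86%), against 9.19% of all eligible probes. Their median log2 difference was 0.06 and 5 were at least 2-fold lower. The highest neighbour was wheat0130Contig2398 at 2.59, beside the member wheat0130Contig2399. The pair wheat0130Contig6656 and wheat0130Contig6657 was the only case of adjacent numbers that were both members.

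For 6 members the array carried a second probe of the same clone or contig name, which gives another reading of a similarly named sequence. Clone names occur with and without a leading r, whose meaning is not stated. Agreement was close for rwhr5f05, which had 146 and 126 on the wild-type arrays and 8725 and 9443 on the SGA arrays (35.7-fold). Its partner whr5f05 had 31.1 and 28.1 against 1609 and 1602, a 29.0-fold difference at a lower level.

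The partners of 2 other clone members also stood higher in SGA. Probe wh34k04 had 24.5 and 17.0 in wild type, where it was not well above background, and 2365 and 2378 in SGA. The signals as measured give 62.1-fold, beside 54.9-fold for the member rwh34k04, with a wild-type side too faint to bound the difference. Probe whsl15p05 had 15.5 and 17.0 in wild type, above background on 1 array, and 376 and 427 in SGA. With wild-type signals raised to at least the lowest signal on their array that counted as well above background, that is 11.2-fold. The member rwhsl15p05 had 39.2-fold, and such a floored value does not show that the readings differ.

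The readings parted for a clone whose probes were both measured on all 4 arrays. Member rwhr14d05 had 39.2 and 27.9 on the wild-type arrays and 4579 and 4429 on the SGA arrays, a 72.8-fold difference, whereas whr14d05 had 26.8 and 39.6 against 76.4 and 61.8, a log2 difference of 0.18. The partners of the other 2 members were too faint to be set against them. Member rwhei1h02_629 had 116 and 151 on the wild-type arrays and 14398 and 14663 on the SGA arrays, and its partner whei1h02_36 was above background on no array. Member wheat0130Contig14693_2 had 56.2 and 56.7 against 6801 and 7661. Its partner wheat0130Contig14693 was above background in SGA alone, at 38.8 and 40.2. The signals as measured give 4.79-fold, with a wild-type side too faint to bound the difference. With wild-type signals raised to the lowest signals that counted as well above background, the value was 1.18-fold.

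Both forms of a clone name could be compared across the array. Of 1112 clones with both forms of the name among eligible probes, the 2 log2 differences lay a median of 0.23 apart. In 18 of these clones the form with the leading r was at least 4-fold higher in SGA. The other form was at least 2-fold higher in 10 of the 18, with a median log2 difference of 1.65, and lay within 1 log2 unit of its partner in 7. What separates the readings was not tested.

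The members were spread over the array surface. In 4 equal blocks of spot rows they numbered 21, 26, 17 and 18, where each block held 24.3% to 25.6% of eligible probes. No plant spot was saturated on any array. The scanner software's own error of a spot was smaller relative to its signal for members in SGA, where signal over error was at least 9.99, than in wild type, where that ratio had a median of 7.27 and 8.34 and a minimum of 4.48.

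The size of the differences depended on the background correction. Normexp background correction gave a median of 4.95 in place of 6.01, with 39 members still at 5 or more and 73 at 4 or more. It adds an offset of 50 to every signal, which changes the log2 value of faint ones most. The median spot signal also took the place of the processed intensity, so the effect of the offset alone was not tested. For the 35 members under 50 units in wild type the median moved from 6.41 to 4.95, and for the 17 of 100 units or more from 5.61 to 5.31. The largest drops were those of wheat0130Contig2585, to 5.54, and rwhsl15p05, to 3.46. Of the 10 members with the highest differences, 8 were also among the highest 10 with this correction, and wheat0130Contig5354 came first under both.

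Scaling by 1 factor per array moved all members by the same amount. Scaling by the median took the member median to 5.74, the authors' deposited values to 6.42, total signal to 6.64 and the 7 spike-in probes to 6.90, while the median eligible probe moved from -0.14 to 1.01 over the same settings. Quantile normalization moved members either way, by -0.25 to 0.39, and gave a median of 5.93 with 76 members at 5 or more.

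**Figure D5:**
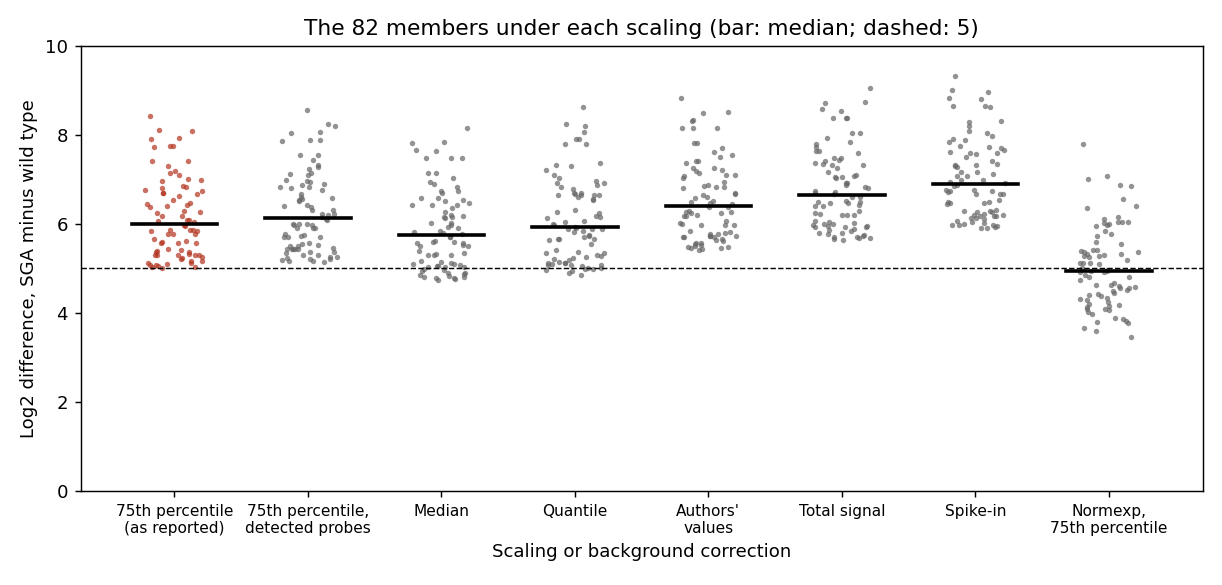
Log2 difference (SGA minus wild type) of each of the 82 members under 8 scalings or background corrections, with the median as a bar and the threshold of 5 as a dashed line. The medians run from 4.95 with normexp to 6.90 with spike-in scaling, and no member falls under 3.46.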

How the data were processed

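Crown RNA of triploid hybrids, in 2 wild-type and 2 SGA samples, was labelled with Cy3 and hybridised to 1-colour arrays, per the labels' protocols. The authors deposited scanner files of linear spot intensities. Per the file headers, the processed intensity comes from Agilent Feature Extraction, given as version 9.5 by the submitters' processing notes, and is background-subtracted and detrended within its array, with no normalization between arrays. The authors' deposited value table is this intensity times 1 constant per array (1.04, 1.17, 0.803 and 0.767), a step that no source used here explains.

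Groups and replicate numbers came from the sample titles. Values were taken as log2 of processed intensity minus the array's 75th percentile over plant probes. Probes well above background on both arrays of at least 1 group, with no outlier flag, were fitted with limma 3.58.1 in R 4.3.3 (lmFit, eBayes, Benjamini-Hochberg, threshold 0.05). The slide test was checked on simulated data that gave every probe the same spread, so the check does not cover unequal spread between probes. Tables and figures used Python 3.11.15, pandas 2.3.3, scipy 1.17.1 and matplotlib 3.10.9. Precision is limited by the number of arrays.

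The file headers put same-numbered arrays on the same slide, so replicate numbers pair the arrays; their deviations from group means correlated at r = 0.20 across 30005 tested probes and at 0.35 across the 27069 of them above background on all 4 arrays, which are not independent replicates. The members and the lists were chosen with earlier results of these data known. Probes named in the text were the 5 highest and 3 lowest members and the nearest outsiders by difference, the extremes of level in each group and of replicate spread, the largest drops under normexp and probes sharing a clone or contig name; probes named for their slide values, contig numbers or band were chosen after their values were seen. The mean spot signal that normexp was planned on was replaced by the median spot signal, the column in the files. No annotation of the probes was used, so the gene lists planned for annotated probes were not run.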

Additional observations from a re-analysis of the deposited data

How the results depend on the processing

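Contig bands of 500 numbers, single-member alternatives and the standard error under a block were chosen after seeing the data. The count of 82 became 68 with median scaling, 78 with quantile normalization, 86 with the 75th percentile of detected probes and 95 in the authors' values. It became 113 with total signal, 139 with spike-in scaling and 39 with normexp. A less strict detection flag gave 155, no filter on dim probes 316, a threshold of 4 gave 149 and one of 6 gave 41. Leaving out each array gave 81 to 86. The median log2 difference of 6.01 became 5.74 with median scaling, 6.14 with the 75th percentile of detected probes, 6.42 in the authors' values, 6.64 with total signal, 6.90 with spike-in scaling and 4.95 with normexp, and leaving out each array gave 5.98 to 6.06. With the replicate block it was 6.01, as a balanced design fixes, and the median standard error was 0.070 in place of 0.082. The share of signal was 0.00728% in wild type and 0.487% in SGA with normexp, and 0.00404% to 0.00419% and 0.473% to 0.478% when an array was left out. At a threshold of 6 the wheat0130Contig share was 73.2%. The slide test called 0 members under all 11 alternatives run; leaving out an array leaves it no residual degrees of freedom. No member changed sign under the 14 alternatives for single members; 39 stayed at 5 or more under each, a direction that the choice of members fixes. Signal over background limits the wild-type side. With normexp 43 members fell under 5, of which 19 had a wild-type mean under 50 units, so the crossing was not confined to the faintest.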
